A study of Mus musculus with 24 samples.

Results

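The genes described here encode 10 selective autophagy receptors, taken by symbol from the 19880 genes of an expression table of mouse tail fibroblasts. They are Sqstm1, Nbr1, Optn, Tax1bp1 and Tollip, which bind ubiquitin and serve in the clearance of protein aggregates (aggrephagy), Bnip3, Bnip3l and Fundc1, which sit in the outer mitochondrial membrane and serve in mitophagy, and Calcoco1 and Ncoa4, which carry other cargo. All 10 were above 0 in every library and all 10 passed the filter for testing. The cells were dermal fibroblasts cultured from tail snips of male C57/Bl6 mice that were 4 weeks old, and per the study's methods all 4 cell-states were made from the same originating pool of cells. Proliferating fibroblasts were actively dividing cultures. Senescent fibroblasts had been passaged at low density until they no longer expanded, Quiescent fibroblasts had been contact-inhibited at confluence, and Immortalized fibroblasts carried the SV40 large T antigen delivered by a retrovirus, which inactivates p53 and RB. Each cell-state was given 0.1% DMSO or 10 µM MG132, a peptide aldehyde that blocks the proteasome, for 8 h, with 3 libraries for each of the 8 groups and 24 in all. The question was how the receptor genes of each cell-state responded when proteins marked for degradation could no longer be cleared by the proteasome, in cells that the study describes as forming aggresomes (Quiescent and Immortalized) or not forming them (Proliferating and Senescent).

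In selective autophagy a receptor binds its cargo on one side and a lipid-anchored protein of the ATG8 family (LC3 and GABARAP) on the growing autophagosome membrane on the other. p62, the product of Sqstm1, and NBR1 gather ubiquitinated proteins into condensates, optineurin and TAX1BP1 recruit further autophagy factors to them, and TOLLIP links ubiquitinated cargo to LC3 through its CUE domain. BNIP3, its relative NIX (Bnip3l) and FUNDC1 are anchored in mitochondria and recruit LC3 without ubiquitin, CALCOCO1 is a receptor for endoplasmic reticulum and Golgi membranes, and NCOA4 delivers ferritin to lysosomes so that its iron is released. Sqstm1 is a known target of NRF2, the transcription factor of the oxidative stress response, and Bnip3 is a known target of the hypoxia-inducible factor HIF-1.

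The promoters of Sqstm1 and Bnip3 are shown because these members had the widest rise and the widest fall under MG132. Each run is the 250 bases before the transcription start that RefSeq gives (GRCm38.p6), written 5′ to 3′ on the gene's own strand. Sqstm1 covers chr11:50210821-50211070 and Bnip3 covers chr7:138909507-138909756, both on the minus strand. Capitals mark every match to the core of the hypoxia response element (ACGTG or GCGTG, on both strands), and in Bnip3 one pair of overlapping matches also spells the E-box CACGTG.
Sqstm1: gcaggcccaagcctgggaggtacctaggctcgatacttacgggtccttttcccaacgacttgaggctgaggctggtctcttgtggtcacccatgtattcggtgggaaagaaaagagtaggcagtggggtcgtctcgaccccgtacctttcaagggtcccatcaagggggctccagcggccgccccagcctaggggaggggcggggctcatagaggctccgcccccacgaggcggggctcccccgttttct
Bnip3: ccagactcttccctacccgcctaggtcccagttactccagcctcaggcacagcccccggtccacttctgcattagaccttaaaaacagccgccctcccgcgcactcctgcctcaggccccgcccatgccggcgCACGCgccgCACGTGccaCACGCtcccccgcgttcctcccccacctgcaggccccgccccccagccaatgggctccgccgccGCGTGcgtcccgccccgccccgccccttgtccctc
The Bnip3 run held 5 hypoxia core matches, at 117, 108, 107, 99 and 35 bases before the start, and the Sqstm1 run held 0. Of 32851 RefSeq promoters of the same length 38.6% had at least 1 such match, and 6.0% had the E-box. Neither run held the antioxidant response element TGACNNNGC (in 10.2% of all promoters), a pair of heat shock units spelled GAANNTTC or TTCNNGAA (12.8%), or the ATF4 element TGATGNAA (3.5%), with both strands searched. Other members had hypoxia core matches too, with 3 in Tollip, 2 in Optn, 1 in Calcoco1 and 0 in Fundc1. Members with more than 1 promoter had 1 and 3 (Tax1bp1), 0 and 1 (Nbr1) and 1, 0 and 3 (Ncoa4). The antioxidant element was found in 1 promoter of Tax1bp1 and 1 of Ncoa4. The Bnip3 run was 72.4% G or C, and the share of all promoters counts any with at least 1 match. These matches describe the letters only, and binding of a factor was not measured.

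Values below are scaled TPM. TPM gives the abundance of a transcript per unit of its length, with every library brought to the same total, and each library was here scaled once more by a size factor from the median of ratios over genes. The choice of scale matters, since on the TPM as deposited the median change of all 13489 tested genes under MG132 was -0.57 log2 in Immortalized and -0.48 in Proliferating cells but -0.18 in Quiescent and -0.05 in Senescent cells, and after scaling it lay between -0.03 and 0.01 in all 4. The scaling brings this median near 0 by its construction, so a shift shared by most genes would be removed as well. In addition to these scales, the normalization to a common total was undone, which makes 3 in all. On that scale the medians were -0.498 in Immortalized, -0.435 in Proliferating, -0.097 in Quiescent and -0.109 in Senescent cells. The study added spike-in RNA by cell number to control for differences in global transcription. Which scale is nearest to transcript per cell was not tested. As these are bulk cultures, fewer cells with a transcript and less transcript per cell cannot be told apart. Between 16751 and 18161 genes were above 0 in a library, but TPM keeps no depth, so counting error is unknown. Among 10 fibroblast markers, Vim, Col1a1, Col1a2 and Thy1 had group means of at least 401.1 scaled TPM in every group, whereas Dcn was at 0.71 and Lum at 0.06 in Immortalized DMSO cells. Under MG132 7 of these 10 markers were called lower in Quiescent cells (median -1.11 log2, with Col1a2 going from 9046 ± 578 to 3383 ± 153), 5 in Senescent, 2 in Proliferating and 1 in Immortalized cells, and 7, 4, 5 and 4 on the TPM as deposited, and their part in the receptor values was not tested. Of 18 markers of other skin, blood, muscle and nerve cells, 15 were in the table and summed to between 47.7 and 867 scaled TPM per library, with group means of Acta1 from 27.7 to 537. Their sum was 397.8 to 867 in Immortalized MG132 libraries against 126.1 to 316 under DMSO. Of 8 tested, 5 were called higher under MG132 in Immortalized, 3 in Proliferating and 1 each in Senescent and Quiescent cells, and 0 lower. On the TPM as deposited 3, 2, 1 and 1 were higher in that order, and 1 was lower in Proliferating cells. The shares of all genes called on both scales are given below with the ATG8 genes. Kdr had the widest rise in Immortalized cells, with means of 0.18 and 6.38. Ptprc stayed under 0.04 and Adipoq under 0.13 in every group mean, and the part of these markers in the results was not tested. Mki67, a proliferation marker, had medians of 14.9 in Proliferating, 12.2 in Quiescent, 0.50 in Senescent and 12.99 in Immortalized DMSO libraries, the last group holding 1 library at 73.2. Its Proliferating libraries read 1.995, 14.85 and 15.95 and its Quiescent libraries 5.12, 12.2 and 17.3. The groups overlapped, and the low end of the Proliferating range was set by 1 library. Replicate 3 of Proliferating DMSO stood apart from the other libraries of its group. Its 10 heat shock genes summed to 11760 scaled TPM, the top of a group that began at 3718, while Proliferating MG132 libraries lay between 88610 and 139900. Member values that changed a call or moved by more than 1.5 times without this library are given both ways.

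Sqstm1 (chr11:50199366-50210827) rose under MG132 in every cell-state on all 3 scales and was the most abundant receptor transcript in all 24 libraries. In Proliferating fibroblasts the 3 DMSO libraries read 457, 459 and 1160 scaled TPM and the 3 MG132 libraries 3874, 4129 and 5061, a 6.29-fold difference of means with a log2 change of 2.79 ± 0.27 (SE, limma adjusted p = 1.7e-07). Without replicate 3 of the DMSO group, the highest of the 3, the change was 3.24. Senescent libraries read 1065, 1118 and 1598 under DMSO and 3383, 3494 and 3023 under MG132, which is 2.62-fold, or 1.41 ± 0.27 on the log2 scale (adjusted p = 0.00029). The Senescent response was thus the smallest of the 4, and it started from the highest DMSO level. Quiescent libraries read 263, 198 and 215 under DMSO and 1791, 2209 and 1979 under MG132, an 8.84-fold rise (log2 3.14 ± 0.27, adjusted p = 2.9e-08). Immortalized libraries read 586, 515 and 783.5 under DMSO and 5718, 4257 and 6198 under MG132, an 8.58-fold rise (log2 3.10 ± 0.27, adjusted p = 1.3e-08). DMSO and MG132 libraries did not overlap in any cell-state. Quiescent cells, which had the largest log2 change, reached the lowest level under MG132, 1993 ± 209 (SD, n = 3) against 5391 ± 1011 in Immortalized, 4355 ± 625 in Proliferating and 3300 ± 246 in Senescent cells. The Proliferating and Immortalized MG132 libraries overlapped, and the other neighbours in that order did not. That order depends on the scale, since on the TPM as deposited the Senescent mean (3870 ± 309) was above the Immortalized (3527 ± 675) and Proliferating means (3199 ± 325), these 3 groups overlapped with each other, and the Quiescent group (2141 ± 184) was below all of them. Sqstm1 shares exonic sequence with Mrnip on the opposite strand. The libraries were stranded, and no source used here states whether reads were assigned by strand.

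**Figure D1:**
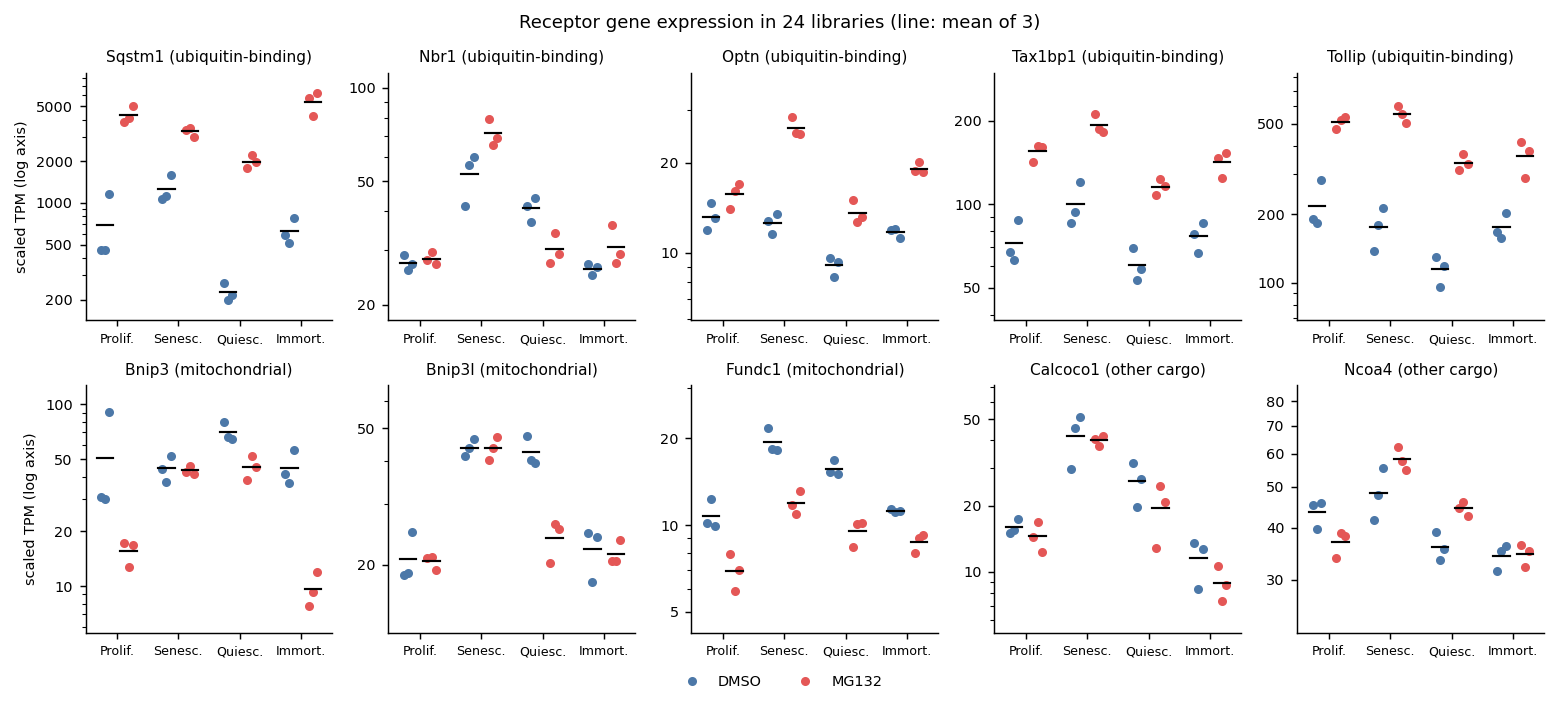
Scaled TPM (log axis, 1 panel per gene) of the 10 receptor genes in each library, for 4 cell-states under DMSO (blue) and MG132 (red), with a line at the mean of 3 libraries. Sqstm1, Tollip and Tax1bp1 were higher in all 3 MG132 libraries than in all 3 DMSO libraries of every cell-state on this scale, Fundc1 was lower in all 4, and Bnip3 was called lower in Proliferating and Immortalized cells.

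Tollip and Tax1bp1 also rose in all 4 cell-states on this scale. Tollip (chr7:141874813-141918507) read 137.1, 178 and 212 in Senescent DMSO libraries and 596, 552 and 505 under MG132, its largest response at 3.13-fold (log2 1.66 ± 0.18, adjusted p = 5.2e-07). Its Quiescent libraries read 129.7, 95.3 and 118 under DMSO and 312, 368 and 332 under MG132 (log2 1.56 ± 0.18, adjusted p = 9.6e-07). In Senescent cells the estimate for Tollip was above that for Sqstm1, a difference that was not tested. In Proliferating cells it went from 191, 182 and 282 to 472, 522 and 533 (log2 1.24 ± 0.18, adjusted p = 1.2e-05). In Immortalized cells it went from 167, 157 and 201 to 416, 289 and 379 (log2 1.03 ± 0.18, adjusted p = 6.6e-05). Its DMSO and MG132 libraries did not overlap in any cell-state, but the Immortalized call was lost on the TPM as deposited (log2 0.26, adjusted p = 0.26).

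Tax1bp1 (chr6:52713729-52766780), whose product binds ubiquitin and brings the initiation complex of autophagy to p62 condensates, had similar changes in the 4 cell-states. Its log2 change was 0.87 in Immortalized, 0.93 in Quiescent, 0.96 in Senescent and 1.09 in Proliferating cells, each ± 0.14, with adjusted p-values between 4.4e-06 and 3.9e-05. Group means went from 72.5 ± 13.5 to 154.7 ± 11.3 scaled TPM in Proliferating, from 99.8 ± 18.4 to 193.5 ± 15.8 in Senescent, from 60.4 ± 8.22 to 115.3 ± 7.66 in Quiescent and from 76.8 ± 9.38 to 141.3 ± 15.2 in Immortalized cells. None of the 6 differences between these responses passed the test on this scale, the widest being Immortalized minus Proliferating at -0.22 (95% interval -0.65 to 0.20). On the TPM as deposited the Immortalized change was 0.10 and was not called (adjusted p = 0.60), and it was then below the Senescent (-0.84) and Quiescent (-0.64) responses with a call.

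Optn and Nbr1 behaved differently between cell-states. Optn (chr2:5020642-5064051), an adaptor that binds ubiquitin chains and is activated by the kinase TBK1, read 12.8, 11.5 and 13.5 in Senescent DMSO libraries and 28.5, 25.1 and 25.0 under MG132. This was its largest response (2.08-fold, log2 1.0 ± 0.10, adjusted p = 3.6e-07), and all 3 MG132 libraries were above every library of the other groups, whose highest was 20.1. In Immortalized cells Optn went from 11.96, 12.1 and 11.2 to 18.8, 20.1 and 18.6 (log2 0.66 ± 0.10, adjusted p = 2.4e-05), and in Quiescent cells from 9.65, 8.32 and 9.32 to 15.1, 12.7 and 13.2 (log2 0.54 ± 0.10, adjusted p = 0.00028). The Proliferating change of 0.23 was not called (adjusted p = 0.069). On the TPM as deposited Optn turned to a called fall in Proliferating (-0.33) and to an uncalled -0.065 in Immortalized cells, so only its Senescent and Quiescent rises held on all 3 scales.

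Nbr1 (chr11:101552149-101581951), the partner of p62 that promotes condensate formation, was the one ubiquitin-binding receptor with a called fall. Quiescent libraries read 41.6, 37.0 and 44.0 under DMSO and 27.2, 34.1 and 29.2 under MG132 (log2 -0.43 ± 0.13, adjusted p = 0.0093), with no overlap. Senescent libraries read 41.6, 56.4 and 59.9 under DMSO and 79.7, 65.6 and 68.9 under MG132 (log2 0.44 ± 0.13, adjusted p = 0.0081), again with no overlap, and the change was 0.29 (adjusted p = 0.068) without replicate 1 of Senescent DMSO, the lowest of the 3. Nbr1 therefore moved in opposite directions in these cell-states. In Proliferating cells the change was 0.05 and in Immortalized cells 0.22, neither called, and both turned to called falls (-0.53 and -0.53) on the TPM as deposited.

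Among the mitophagy receptors, Bnip3 (chr7:138890836-138909519) had the widest fall. Immortalized libraries read 41.5, 36.7 and 55.8 scaled TPM under DMSO and 7.77, 9.26 and 11.99 under MG132, a 4.62-fold difference of means (log2 -2.10 ± 0.29, adjusted p = 4.4e-06). Proliferating libraries read 30.9, 30.1 and 90.6 under DMSO and 17.4, 12.8 and 16.8 under MG132 (log2 -1.44 ± 0.29, adjusted p = 0.00032). The third DMSO library was thus about the level of the Quiescent DMSO group, and without it the Proliferating change was -0.93, still called (adjusted p = 0.00045). Senescent libraries read 44.3, 37.2 and 51.7 under DMSO and 42.3, 46.1 and 41.6 under MG132, the MG132 values all lying within the DMSO range, with a log2 change of -0.02 (95% interval -0.62 to 0.57). Quiescent libraries read 80.1, 66.3 and 64.2 under DMSO and 38.1, 52.1 and 45.2 under MG132, which did not overlap, but the change of -0.63 was not called (adjusted p = 0.07). It was -0.81 and called on the TPM as deposited (adjusted p = 0.016). Under MG132 Senescent and Quiescent cells thus kept Bnip3 at 43.3 ± 2.40 and 45.2 ± 6.99, and Proliferating and Immortalized cells at 15.7 ± 2.52 and 9.67 ± 2.14, with no overlap between these pairs of groups. That pairing of cell-states is not the one by aggresome formation, and it was noticed in these values and not tested. The sum of 10 heat shock genes split the MG132 libraries in the same way, with 88610 to 139900 in Proliferating and 72770 to 146200 in Immortalized against 15920 to 20930 in Senescent and 15100 to 18930 in Quiescent cells, and its part in the Bnip3 levels was not tested.

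Bnip3l (chr14:66985239-67008877), which encodes NIX, the receptor that clears mitochondria from maturing red blood cells, was called in Quiescent cells. There it read 47.5, 40.5 and 39.6 under DMSO and 20.3, 26.3 and 25.4 under MG132, a 1.77-fold difference with no overlap (log2 -0.81 ± 0.13, adjusted p = 5.7e-05). Its changes elsewhere were -0.03 in Immortalized, -0.01 in Senescent and -0.01 in Proliferating cells, none called, each with a 95% interval within 0.31 of 0. The Proliferating (-0.58) and Immortalized (-0.77) values were called as well on the TPM as deposited.

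Fundc1 (chrX:17556564-17572325), a receptor that acts when phosphorylation at its LC3-binding site is lost, fell in all 4 cell-states. It read 21.8, 18.3 and 18.2 under DMSO and 11.8, 10.9 and 13.2 under MG132 in Senescent cells (log2 -0.66 ± 0.12, adjusted p = 0.00013). It read 15.3, 16.8 and 15.1 against 8.42, 10.1 and 10.2 in Quiescent cells (log2 -0.67 ± 0.12, adjusted p = 0.00011). The Proliferating fall was from 10.8 ± 1.31 to 6.93 ± 0.996 (log2 -0.57, adjusted p = 0.00044) and the Immortalized fall from 11.2 ± 0.17 to 8.76 ± 0.69 (log2 -0.33, adjusted p = 0.023). No cell-state had overlapping libraries, and all 4 falls were called on each of the 3 scales. The Immortalized call was lost when DMSO replicate 1 or 3 or MG132 replicate 1 was left out (adjusted p = 0.058, 0.050 and 0.097).

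The receptors of other cargo changed little on the median-of-ratios scale. Ncoa4 (chr14:32159865-32179855) went from 38.9, 33.5 and 35.5 to 44.6, 45.9 and 42.7 in Quiescent cells (log2 0.30 ± 0.10, adjusted p = 0.021), with no overlap, but the call was lost in 3 of the 6 fits that left out a Quiescent library (adjusted p up to 0.0873). In Senescent cells it went from 41.8, 47.9 and 55.5 to 62.3, 57.6 and 54.7 (log2 0.27 ± 0.10, adjusted p = 0.039), with overlap, and that call was lost in 4 of the 6 fits that left out a Senescent library. Both calls were lost on the TPM as deposited (0.12 and 0.26), on which the Immortalized value turned from 0.02 to a called -0.73. In Proliferating cells Ncoa4 was lower under MG132 with no overlap, but its change of -0.23 was not called (adjusted p = 0.0715). On the TPM as deposited that fall was -0.81 and called. Calcoco1 (chr15:102706777-102722178) was called in no cell-state, with changes of -0.14, -0.04, -0.42 and -0.32 in Proliferating, Senescent, Quiescent and Immortalized cells, each with an SE of 0.23, and on the TPM as deposited it was lower and called in Proliferating (-0.70) and Immortalized (-1.01) cells.

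Counted over all members, 5 of 10 passed the test in Proliferating cells (3 higher, 2 lower), where 50.0% of all tested genes did. In Senescent cells 7 passed (6 higher, 1 lower) against 46.1%, in Quiescent cells 8 (5 higher, 3 lower) against 52.2%, and in Immortalized cells 6 (4 higher, 2 lower) against 53.3%. The share of members called was near that background in Proliferating and Immortalized cells and above it in Senescent and Quiescent cells, and the classes differed in direction. Of the 5 ubiquitin-binding receptors 3, 5, 4 and 4 were called higher in Proliferating, Senescent, Quiescent and Immortalized cells, where 25.2%, 22.7%, 25.3% and 26.6% of all genes were, with median log2 changes of 1.09, 1.0, 0.93 and 0.87, but on the TPM as deposited 1 of the 5 was higher and 1 lower in Immortalized and 3 higher and 2 lower in Proliferating cells, where 7.6% and 8.4% of all genes were higher and 56.5% and 53.2% lower. Of the 3 mitophagy receptors 0 were called higher in any cell-state and 2, 1, 2 and 2 were called lower, where 24.8%, 23.4%, 26.9% and 26.6% of all genes were, with medians of -0.57, -0.02, -0.67 and -0.33, and on the TPM as deposited 3, 1, 3 and 3 were lower, where 53.2%, 23.99%, 35.4% and 56.5% of all genes were.

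**Figure D2:**
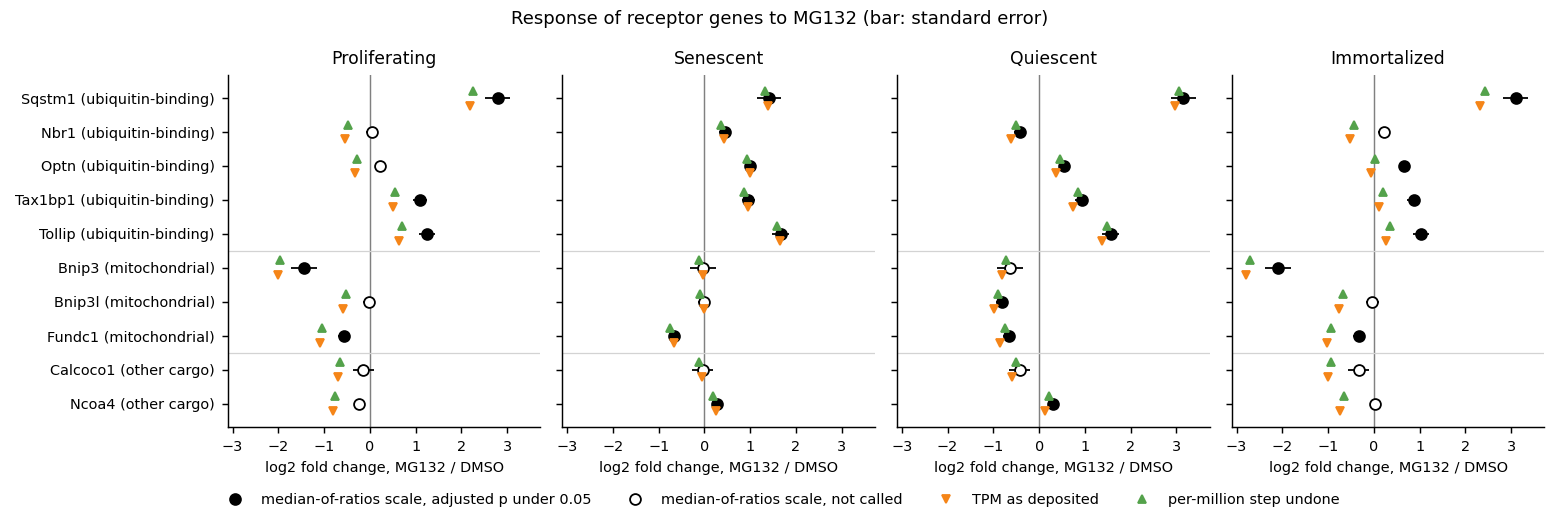
Log2 fold change of each receptor gene, MG132 over DMSO, in 4 cell-states, on the median-of-ratios scale (circles, filled where limma's adjusted p was under 0.05, bars for the SE), on the TPM as deposited (orange) and with the normalization to a common total undone (green). The ubiquitin-binding receptors Sqstm1, Tax1bp1 and Tollip lie to the right of 0 and Fundc1 to the left on all 3 scales, while Nbr1, Optn and Ncoa4 cross 0 with the scale in Proliferating or Immortalized cells.

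Measures taken within a library are free of this choice, because a common factor cancels. Sqstm1 made up 57.2% ± 7.7 (SD, n = 3) of the summed TPM of the 10 receptors in Proliferating DMSO libraries and 84.3% ± 1.4 under MG132. The share went from 69.9% ± 2.0 to 76.0% ± 1.1 in Senescent, from 35.1% ± 0.9 to 75.7% ± 0.3 in Quiescent and from 60.0% ± 2.4 to 89.4% ± 0.8 in Immortalized cells. Senescent cells thus had the smallest gain in share and Quiescent cells the largest. The share of the 3 mitophagy receptors together was 20.1% ± 1.4 in Quiescent DMSO libraries, above the 5.22% to 7.83% of all other DMSO libraries, and under MG132 it was 2.98% in Quiescent, 2.29% in Senescent, 0.85% in Proliferating and 0.68% in Immortalized cells. This share has Sqstm1 in its total and so falls where Sqstm1 rises. In Senescent cells it fell from 6.10% while mean scaled TPM of Bnip3 (44.4 and 43.3) and Bnip3l (43.9 and 43.8) was nearly level and that of Fundc1 fell. Sqstm1 exceeded Bnip3 by 1.68 log2 in Quiescent DMSO libraries and by 9.13 log2 in Immortalized MG132 libraries, the lowest and highest group means of that ratio.

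**Figure D3:**
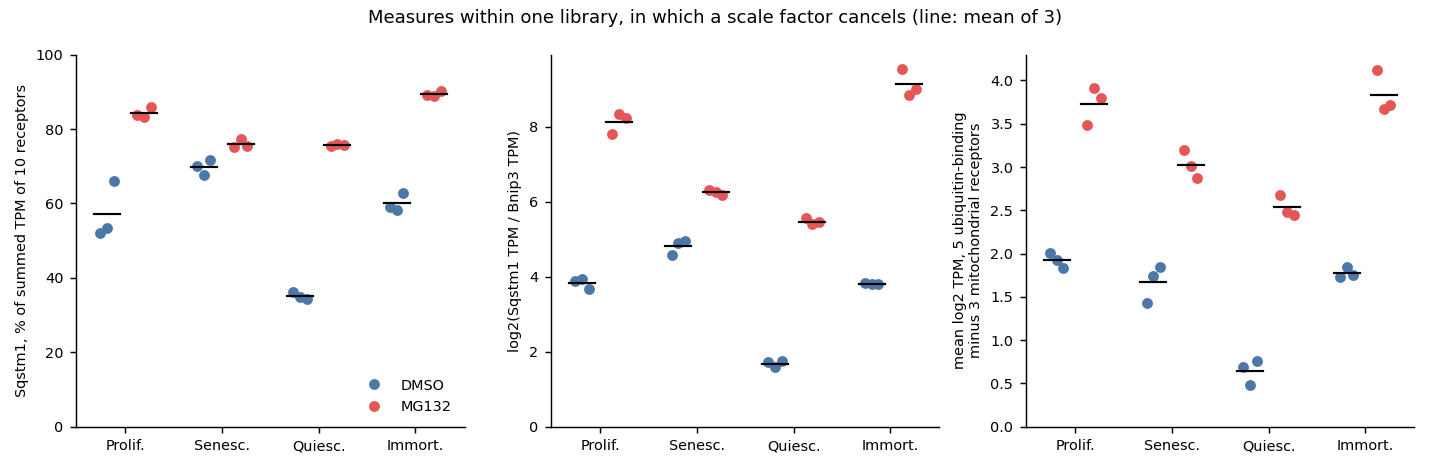
Share of Sqstm1 in the summed TPM of the 10 receptors (left), log2 ratio of Sqstm1 to Bnip3 (middle) and mean log2 TPM of 5 ubiquitin-binding minus 3 mitochondrial receptors (right) in each library, with a line at the mean of 3. All 3 measures were higher in every MG132 library than in every DMSO library of the same cell-state, and Quiescent DMSO libraries were the lowest in each.

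Within a library the mean log2 TPM of the 5 ubiquitin-binding receptors minus that of the 3 mitophagy receptors was larger under MG132 than under DMSO by 1.81 in Proliferating, 2.06 in Immortalized, 1.89 in Quiescent and 1.35 in Senescent cells. This gap is given without a test, since the members were chosen. With Sqstm1 and Bnip3 left out it was 0.99 in Proliferating, 0.91 in Immortalized, 1.44 in Quiescent and 1.39 in Senescent cells. The Senescent gap was thus the smallest with these genes and the second largest without them.

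Without MG132 the cell-states differed in the same genes. The comparisons below share control libraries and are given side by side. Senescent against Proliferating cells had 6 members called, all higher, where 40.8% of all genes were called and 21.0% were higher. They were Calcoco1 (log2 1.30), Bnip3l (1.05), Sqstm1 (0.99), Nbr1 (0.91), Fundc1 (0.80) and Tax1bp1 (0.46), the last of which lost its call in 3 of the 6 fits that left out a library (adjusted p up to 0.11). Bnip3l read 41.4, 43.8 and 46.4 in Senescent libraries and 18.7, 18.9 and 24.8 in Proliferating ones, with no overlap, whereas Sqstm1 overlapped through replicate 3 of Proliferating DMSO and its difference was 1.44 without it. Calcoco1 read 29.5, 45.5 and 50.9 against 15.1, 15.6 and 17.5. Quiescent against Proliferating cells had 7 called (30.2% of all genes, 15.5% higher and 14.7% lower), of which Sqstm1 (-1.48), Tollip (-0.91) and Optn (-0.49) were lower and Bnip3l (1.003), Calcoco1 (0.64), Nbr1 (0.57) and Fundc1 (0.51) were higher. The Calcoco1 call was lost in 5 of the 6 fits that left out a library (adjusted p up to 0.169, and 0.055 with a value of 0.70 without replicate 3 of Proliferating DMSO). Without that replicate the Sqstm1 and Tollip differences were -1.03 and -0.71, both still called. The ubiquitin-binding receptors with a call were thus mostly lower in Quiescent cells and 2 of the 3 mitochondrial ones higher, and the third, Bnip3, read 0.66 and was not called (adjusted p = 0.09), though it was on the TPM as deposited (0.79, adjusted p = 0.031). Without replicate 3 of Proliferating DMSO, Bnip3 was called in this comparison (1.17, adjusted p = 0.00016) and in Senescent (0.52, adjusted p = 0.041) and Immortalized (0.52, adjusted p = 0.045) against Proliferating cells, where the values with it were both 0.00. Immortalized against Proliferating cells had 1 member called, Ncoa4 (-0.34, adjusted p = 0.016), where 35.7% of all genes were and 17.7% were lower, and that call was lost in 3 of the 6 fits that left out a library, that without replicate 3 of Proliferating DMSO among them (-0.30, adjusted p = 0.0503), and with the normalization to a common total undone.

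**Figure D4:**
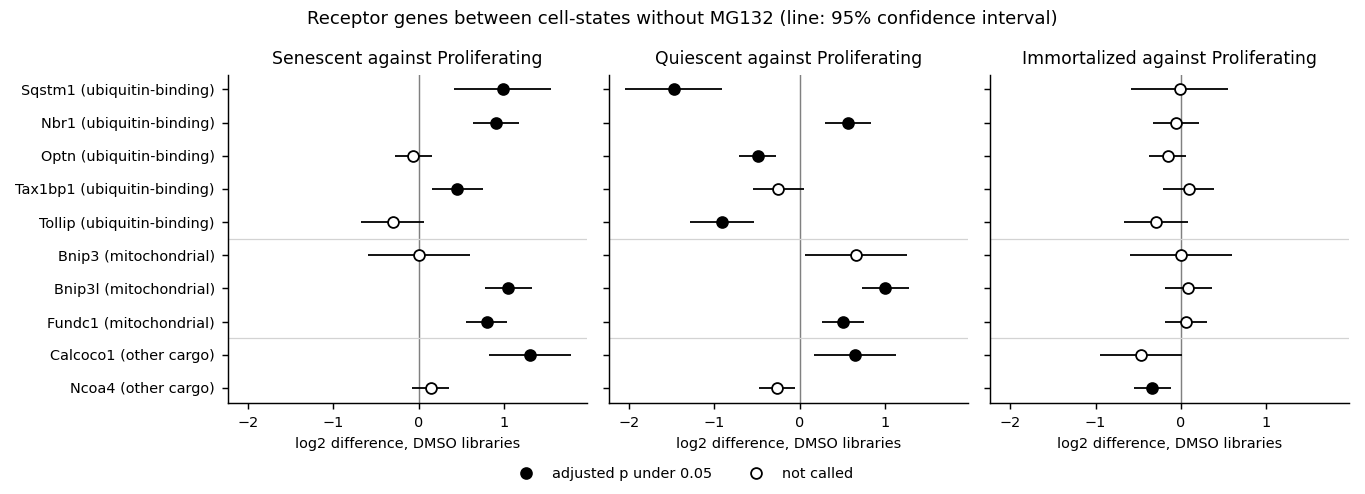
Log2 difference of each receptor gene between DMSO libraries of Senescent, Quiescent or Immortalized and of Proliferating cells, with the 95% confidence interval (lines) and filled circles where the adjusted p was under 0.05. The 3 panels share the Proliferating DMSO libraries. Senescent cells were higher in 6 genes, Quiescent cells were lower in Sqstm1, Tollip and Optn and higher in 4 others, and Immortalized cells differed in Ncoa4.

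Between the other cell-states under DMSO, Quiescent against Senescent had 7 members called, all lower, where 39.1% of all genes were called and 19.8% were lower. Sqstm1 differed most (-2.46 ± 0.27, adjusted p = 6.6e-07), a 5.59-fold difference of means between 1260 ± 294 and 225 ± 33.4 scaled TPM. Tax1bp1 (-0.71), Calcoco1 (-0.66), Tollip (-0.60), Optn (-0.43), Ncoa4 (-0.41) and Nbr1 (-0.34) followed, but Nbr1 (adjusted p = 0.15) and Calcoco1 (0.061) were not called on the TPM as deposited. These 2 calls were each lost in 4 of the 6 fits that left out a library (adjusted p up to 0.203 and 0.153), and that of Tollip in 2 (up to 0.0764). Bnip3l was at 43.9 ± 2.50 and 42.5 ± 4.34 in these groups. Immortalized against Senescent cells also had 7 members lower, against 60.1% of all genes called and 30.8% lower, with Calcoco1 the widest (-1.77 ± 0.23, adjusted p = 2.5e-06). The rest were Sqstm1, Nbr1, Bnip3l, Fundc1, Ncoa4 and Tax1bp1 (-0.37, adjusted p = 0.034), the last with overlapping libraries. The Tax1bp1 call was lost without Immortalized DMSO replicate 1 or 2 or Senescent DMSO replicate 3 (adjusted p = 0.0552, 0.156 and 0.213). Immortalized against Quiescent cells had 7 called (50.2% of all genes, 25.1% higher and 25.1% lower), with Sqstm1 (1.46), Tollip (0.61) and Optn (0.34) higher and Calcoco1 (-1.11), Bnip3l (-0.92), Nbr1 (-0.62) and Fundc1 (-0.45) lower, the Optn call being lost on the TPM as deposited (adjusted p = 0.12) and in 1 of the 6 fits that left out a library (0.0543). The order of Sqstm1 levels under DMSO was thus Senescent, then Proliferating and Immortalized, which overlapped, and then Quiescent, with replicate 3 of Proliferating DMSO reaching into the Senescent range.

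The responses were then compared with each other as differences of log2 change. Sqstm1 rose less in Senescent cells than in Quiescent (difference 1.73 ± 0.39, adjusted p = 0.0031), Immortalized (1.69 ± 0.39, adjusted p = 0.0017) and Proliferating cells (1.38 lower, adjusted p = 0.016), the last of which lost its call without Proliferating DMSO replicate 1 or 2 (adjusted p = 0.0504 for each) and on the TPM as deposited (-0.795, adjusted p = 0.094), and which was -1.83 without replicate 3 of that group. Among the 3 other cell-states no difference in the Sqstm1 response was called, and their 95% intervals ran from -0.84 to 1.16. The mean response of Quiescent and Immortalized cells exceeded that of Proliferating and Senescent cells by 1.02 ± 0.27 (adjusted p = 0.011), where 19.7% of all genes were called and 2 of the 10 members were. The other called member was Bnip3l (-0.41, adjusted p = 0.036), and 14 of the 24 fits that left out a library lost it. Nbr1 (-0.52) and Bnip3 (-0.78) were called lower in that contrast as well on the TPM as deposited. Without replicate 3 of Proliferating DMSO the contrast was 0.80 for Sqstm1 and -0.89 for Bnip3, the latter then also called (adjusted p = 0.0012). For Sqstm1 the pairs behind that contrast are those just given, of which Quiescent minus Proliferating (0.35) and Immortalized minus Proliferating (0.31) were not called. For Bnip3l they were -0.79 and -0.80 for Quiescent against Proliferating and Senescent cells, both called, and -0.02 and -0.03 for Immortalized cells, neither called, and on the TPM as deposited the first of these lost its call (-0.40, adjusted p = 0.15) and the last gained one (-0.75, adjusted p = 0.0037).

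For Bnip3, the response of Immortalized cells was lower than that of Senescent (-2.07 ± 0.40, adjusted p = 0.00045) and Quiescent cells (-1.46 ± 0.40, adjusted p = 0.0093). The Senescent response was also higher than the Proliferating one (1.42, adjusted p = 0.019, or 0.91 and still called without Proliferating DMSO replicate 3). Immortalized minus Proliferating was -0.65 and not called (adjusted p = 0.34), but without that library it was -1.16 (adjusted p = 0.0044). With all libraries that comparison called 0 of the 10 members and 11.6% of all genes, while 1 member, Optn, had an unadjusted p under 0.05 and the fit with array weights called 4. Optn responded more in Senescent than in Proliferating (0.77, adjusted p = 0.0011) and Quiescent cells (0.46, adjusted p = 0.030), the last of which lost its call in 6 of the 12 fits that left out a library (adjusted p up to 0.0796). Nbr1 fell in Quiescent cells, and its response there was called below those of Senescent and Immortalized cells. Against Proliferating cells the difference was -0.47 and was not called. Quiescent minus Senescent was -0.87 (adjusted p = 0.0020) and Immortalized minus Quiescent 0.65 (adjusted p = 0.011), the last lost on the TPM as deposited (adjusted p = 0.79). Across the 6 pairs, 4, 2, 4, 0, 2 and 3 members were called for Senescent minus Proliferating, Quiescent minus Proliferating, Quiescent minus Senescent, Immortalized minus Proliferating, Immortalized minus Senescent and Immortalized minus Quiescent, where 18.8%, 13.1%, 20.4%, 11.6%, 38.5% and 31.2% of all genes were. With the TPM as deposited the Immortalized responses were called below the Senescent ones in 8 of 10 members, among them Tollip (-1.39), Optn (-1.06) and Ncoa4 (-0.99), so differences between cell-states in the members with small changes depend on the scale. For response differences on that scale and with array weights the share of all genes called was not taken. On the TPM as deposited the median change of all genes was -0.57 in Immortalized and -0.05 in Senescent cells. The count of 8 of 10 therefore cannot be read as particular to the members.

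The ATG8 proteins are the membrane anchors that the receptors bind. Of 5 ATG8 genes 4, 2, 3 and 5 were higher in Proliferating, Senescent, Quiescent and Immortalized cells and 0 were lower, with medians of 1.04, 0.42, 0.78 and 1.22 log2, but on the TPM as deposited 2, 2, 3 and 1 were higher and 1 was lower in Quiescent cells, with medians of 0.44, 0.41, 0.60 and 0.45, and Gabarap turned in Immortalized cells. Gabarapl1 had the widest rise of them in Proliferating (1.36 ± 0.23), Quiescent (1.0) and Senescent cells (0.73), and Gabarapl2 in Immortalized cells (1.38). Among 21 lysosomal genes and TFEB family members, 17 were higher in Proliferating and 17 in Immortalized cells, 9 in Quiescent and 2 in Senescent cells, yet on the TPM as deposited 3 were higher and 5 lower in Proliferating and 4 higher and 2 lower in Immortalized cells. The cathepsin Ctsl had the widest rise of that list, by 1.53 in Immortalized and 1.34 in Proliferating cells. Of 13 further cargo receptors 2, 0, 3 and 4 were higher and 4, 5, 4 and 3 lower in Proliferating, Senescent, Quiescent and Immortalized cells, and on the TPM as deposited 0, 0, 1 and 1 were higher and 10, 6, 5 and 10 lower. Atl3, a receptor of tubular endoplasmic reticulum, fell in all 4 (-1.66, -0.83, -1.39 and -1.42 in the same order), the widest called fall of that list in each.

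Known targets of NRF2, of which Sqstm1 is also one, and genes known to act on the members gave the following values. Of 14 NRF2 target genes 10, 6, 12 and 10 were higher in Proliferating, Senescent, Quiescent and Immortalized cells, with medians of 1.08, 0.45, 1.62 and 1.05 log2, and on the TPM as deposited 8, 6, 11 and 4 were higher, with medians of 0.50, 0.44, 1.45 and 0.29. The Quiescent median was the highest on both scales, and the lowest was Senescent on the first and Immortalized on the second. Lower were 1, 1, 0 and 2 of the 14, and 2, 1, 1 and 3 on the TPM as deposited. Of all genes 25.2%, 22.7%, 25.3% and 26.6% were higher and 24.8%, 23.4%, 26.9% and 26.6% lower on the first scale. Hmox1, heme oxygenase, had the widest rise in Quiescent (4.43 ± 0.43) and Immortalized cells (4.06 ± 0.43). Gsr had the widest called fall of the list in Immortalized cells (-2.02 ± 0.14). Keap1, the adaptor that marks NRF2 for degradation and is itself bound by p62, fell by 0.75 in Immortalized, 0.36 in Proliferating and 0.33 in Quiescent cells, its list's widest called fall in each. Of 10 genes that regulate the receptors 4, 5, 6 and 3 were higher in Proliferating, Senescent, Quiescent and Immortalized cells, but on the TPM as deposited 5 were lower in Proliferating and 6 in Immortalized cells.

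Of 21 tested hypoxia response genes, 8, 7, 10 and 7 were higher and 5, 7, 5 and 5 lower in Proliferating, Senescent, Quiescent and Immortalized cells, where 25.2%, 22.7%, 25.3% and 26.6% of all genes were higher and 24.8%, 23.4%, 26.9% and 26.6% lower. This list thus held called genes in both directions, as did all genes, and on the TPM as deposited its medians in Proliferating and Immortalized cells turned from 0.16 and 0.17 to -0.37 and -0.47. Egln1, an oxygen sensor of that list, fell by 1.79 in Proliferating and 2.06 in Immortalized cells, while Vegfa rose by 1.85 in Quiescent cells. Of 10 iron handling genes, the ferritin light chain Ftl1 rose by 2.05 in Immortalized, 1.73 in Proliferating and 1.55 in Quiescent cells, where Ncoa4, the ferritin receptor, had values of 0.02, -0.23 and 0.30. Ftl1 belongs to a family with near-identical copies, so its value may hold reads of others.

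**Figure D5:**
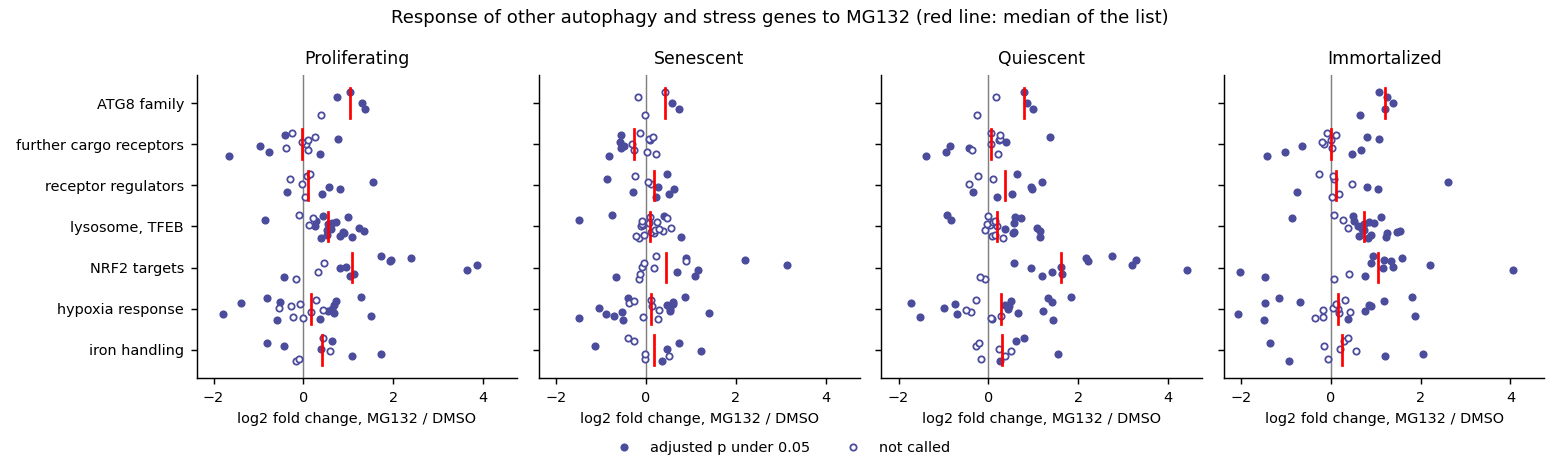
Log2 fold change under MG132 (median-of-ratios scale) of genes in 7 lists related to the receptors, in 4 cell-states, with filled circles where the adjusted p was under 0.05 and a red line at each list's median. NRF2 targets had medians of 1.08, 0.45, 1.62 and 1.05 in Proliferating, Senescent, Quiescent and Immortalized cells, and ATG8 genes 1.04, 0.42, 0.78 and 1.22, while hypoxia genes lay on both sides of 0. On the TPM as deposited the NRF2 and ATG8 medians stayed above 0 and the lysosome medians of Proliferating and Immortalized cells were -0.03.

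Over the 24 libraries the genes whose log2 levels were most like those of Sqstm1, among 7546 genes that averaged 10 TPM or more, were Zwint (Pearson's r = 0.987), Hmox1 (0.982), Por (0.981), Tmem68 (0.979) and Ubap1 (0.978). Among the members Tax1bp1 (0.931) and Tollip (0.903) were the nearest to it and Bnip3 (-0.672) the farthest. For Bnip3 the nearest genes were Mgat2 (0.943), Map2k5 (0.926), Smo (0.921), Slc10a3 (0.918) and Keap1 (0.912), and the nearest members were Fundc1 (0.624), Calcoco1 (0.571) and Bnip3l (0.561). These coefficients run over libraries that fall into 8 groups and share the treatment contrast, so they describe the likeness of profiles across groups and are not independent of the changes above.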

How the data were processed

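Poly(A) RNA of mouse tail fibroblasts was read in 24 libraries, 3 for each of 8 groups. The authors deposited TPM, and each library sums to 1000000. Their methods name Cutadapt, kallisto, RUVg spike-in normalization and TPM, while HISAT2, StringTie, edgeR, FastQC and cutadapt appear in the submitters' processing notes. No source used here says which of them produced the table, which holds 0 spike-in rows. Depth is unknown.

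Size factors (median of ratios, 13243 genes above 0 in every library) were divided out of the TPM. Genes with at least 1 TPM in at least 3 libraries (13489) were fitted on log2(scaled TPM + 1) by limma 3.58.1 (R 4.3.3) with its trend option, all 8 groups in 1 model and 16 residual degrees of freedom. Fold changes on this scale understate those of low genes. Benjamini-Hochberg adjusted p-values, taken separately for 17 comparisons and called under 0.05, measure the spread between these libraries, which may be technical, since no label says whether replicates are separate mice or cultures. The fit was tested on simulated data. The per-million factor was recovered from ratios of low values between libraries. Coordinates are GENCODE genes of GRCm38, and promoters are RefSeq's, found for 9 of 10 members.

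The members and lists were chosen with earlier results of these data known. All members are named, with the 5 genes most like Sqstm1 and Bnip3 and the widest called rise and fall of each other list, except a regulator whose result is not reported here. The alternatives tried were each library left out, array weights, no trend, a replicate block, only the libraries compared, no filter or 5 TPM, pseudocounts of 0.1 and 5, TPM as deposited and TPM with its normalization to a common total undone. Figures used matplotlib 3.10.9.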

Additional observations from a re-analysis of the deposited data

Results flagged for a closer look

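The responses of 6 receptors to MG132 differed between cell-states by the test of the difference itself, each given as a difference of log2 changes with its limma adjusted p. For Sqstm1 limma gave -1.38 for Senescent minus Proliferating (adjusted p = 0.016), 1.73 for Quiescent minus Senescent (adjusted p = 0.0031), 1.69 for Immortalized minus Senescent (adjusted p = 0.0017), and 1.02 for the contrast of the aggresome-forming cell-states with the others (adjusted p = 0.011). For Bnip3 limma gave 1.42 for Senescent minus Proliferating (adjusted p = 0.019), -2.07 for Immortalized minus Senescent (adjusted p = 0.00045) and -1.46 for Immortalized minus Quiescent (adjusted p = 0.0093). For Bnip3l limma gave -0.79 for Quiescent minus Proliferating (adjusted p = 0.0082), -0.80 for Quiescent minus Senescent (adjusted p = 0.0047), 0.78 for Immortalized minus Quiescent (adjusted p = 0.0039) and -0.41 for the contrast of the aggresome-forming cell-states (adjusted p = 0.036). For Optn limma gave 0.77 for Senescent minus Proliferating (adjusted p = 0.0011) and -0.46 for Quiescent minus Senescent (adjusted p = 0.030). For Nbr1 limma gave -0.87 for Quiescent minus Senescent (adjusted p = 0.0020) and 0.65 for Immortalized minus Quiescent (adjusted p = 0.011). For Ncoa4 limma gave 0.50 for Senescent minus Proliferating (adjusted p = 0.022) and 0.53 for Quiescent minus Proliferating (adjusted p = 0.021). On the TPM as deposited 4 of these calls were lost, those of Sqstm1 for Senescent minus Proliferating, of Bnip3l for Quiescent minus Proliferating and Immortalized minus Quiescent, and of Nbr1 for Immortalized minus Quiescent. Leaving out a library lost the Optn call for Quiescent minus Senescent in 6 of 12 fits, the Ncoa4 calls for Senescent and Quiescent minus Proliferating in 3 and 2 of 12, the Sqstm1 call for Senescent minus Proliferating in 2 of 12 and the Bnip3l call for the contrast in 14 of 24. The cause of these differences was not tested.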

How the results depend on the processing

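The pseudocount of 0.1, the filter at 5 TPM and the fit without a trend changed none of 170 calls of a member in a comparison, and no filter on low values changed 1 and a pseudocount of 5 changed 2. Scale mattered most. On the TPM as deposited the MG132 log2 change turned for Nbr1 in Proliferating (-0.53) and Immortalized cells (-0.53), Optn in Proliferating (-0.33) and Immortalized cells (-0.065) and Ncoa4 in Immortalized cells (-0.73). The response difference turned for Fundc1, Senescent minus Proliferating (0.42), and for Optn, Immortalized minus Quiescent (-0.43). The members called were then 10 for Proliferating, where 8.4% of all genes were higher and 53.2% lower. They were 7 for Senescent minus Proliferating, 9 for Immortalized minus Senescent, 5 for Immortalized minus Quiescent and 4 for the contrast of aggresome-forming cell-states. For these response differences the share of all genes called on this scale was not taken, so their counts cannot be read as particular to the members. With the per-million step undone Nbr1 turned in Proliferating (-0.48) and Immortalized cells (-0.44) and Ncoa4 in Immortalized cells (-0.64). There 9 members were called for Proliferating, where 8.5% of all genes were higher and 48.9% lower. For Immortalized against Proliferating under DMSO 0 were called, where 2702 of all 13489 genes were higher and 1955 lower. For Immortalized minus Senescent 8 were called, with the share of all genes not taken. The gap between receptor classes, here taken with the pseudocount of 1 (1.76, 1.32, 1.85 and 1.995 log2 in Proliferating, Senescent, Quiescent and Immortalized cells), was 1.715 in Quiescent cells at a pseudocount of 5. With only the libraries compared in the fit, 4 were called for Quiescent against Senescent, 0 for Immortalized against Proliferating and 1 for Senescent minus Proliferating. Array weights gave 6 for Immortalized against Proliferating, where Sqstm1 became 0.47, and 4 each for Quiescent minus Proliferating, Immortalized minus Proliferating, Immortalized minus Senescent and the contrast. The share of all genes called was not taken for the fits with only the libraries compared or with array weights.

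With each library left out in turn, the members called ran from 5 to 7 for Proliferating, 5 to 7 for Senescent, 7 to 8 for Quiescent and 5 to 6 for Immortalized responses. Under DMSO they ran from 5 to 7 for Senescent and 6 to 7 for Quiescent against Proliferating, 0 to 1 for Immortalized against Proliferating, 4 to 7 for Quiescent against Senescent, 6 to 7 for Immortalized against Senescent and 6 to 8 for Immortalized against Quiescent. For response differences they ran from 3 to 4, 1 to 2 and 0 to 1 for Senescent, Quiescent and Immortalized minus Proliferating, 3 to 4 and 2 to 3 for Quiescent and Immortalized minus Senescent, 3 to 3 for Immortalized minus Quiescent and 1 to 3 for the contrast. The share of all genes called was not taken for the fits that left out a library. The gap between classes ran from 1.68 to 1.88 in Proliferating, 1.203 to 1.41 in Senescent, 1.77 to 1.90 in Quiescent and 1.86 to 2.08 in Immortalized cells.

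Taken over all groups, replicate numbers gave no clear pairing of the libraries. Over 84 same-numbered pairs the correlations of deviations ran from -0.66 to 0.57 with a median of 0.04, and 35 of them were over 0.1. The median of differently numbered pairs was -0.03, and 9 of 24 libraries were nearest to their own number. Pairs of DMSO and MG132 libraries within a cell-state were not looked at apart, so pairing there was not tested. With the replicate block 5 of 170 calls changed, and members called were 5 for Proliferating, 7 for Senescent, 9 for Quiescent and 6 for Immortalized responses, with the share of all genes not taken. TPM keeps no depth, so how far counting error limits the low members, such as Fundc1, is unknown.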
